A study of Homo sapiens with 24 samples.

Results

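The comparison set the 72 h array of each doxycycline-treated neuroblastoma culture against the 24 h array of the same culture, and it asked which late changes all cultures shared and whether cultures with FOXP1 and cultures with GFP differed in them. Its members were chosen by their time labels alone, 12 of the 24 arrays of the series, which form 6 pairs. RNA of the established human neuroblastoma lines SK-N-BE(2), IMR-32 and CHP-212 had been labelled with Cy3 and hybridised to Agilent oligonucleotide arrays, with 1 sample on each array. The groups were FOXP1 cells and GFP cells of each line, each after 24 h and after 72 h of doxycycline at 2 μg/ml, so that every group holds 1 array and each pair is a culture. The cultures were polyclonal, with 1 culture for each line and transgene.

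FOXP1 is a forkhead transcription factor that acts mainly as a repressor and has roles in the development of neurons, the heart and lymphocytes. Neuroblastoma arises from precursors of the sympathetic nervous system, and its cell lines keep genes of catecholamine synthesis and of neurite growth. Genes of cell division, of protein folding in the endoplasmic reticulum (ER), of oxygen supply and of the extracellular matrix are commonly followed when cells stay on a dish for days.

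Levels are given as log2 of the processed signal (the spot's intensity after the scanner software's background subtraction) minus the 75th percentile of the array, so that 0 is the level of that percentile. That percentile lay between 1049 and 1378 on the 24 h arrays and between 902 and 2142 on the 72 h arrays. The share of the 43291 probes well above background was 72.8 to 81.5% at 24 h and 75.1 to 80.4% at 72 h. The 24 h array of the SK-N-BE(2) culture labelled FOXP1 had 73.7% of its probes well above background, against 80.4% at 72 h, and the lowest signal well above background was 27.7 there against 10.9 at 72 h. Both arrays of a pair lie on the same slide, the 24 h arrays at positions 1 and 2 and the 72 h arrays at positions 3 and 4, so that time and slide position cannot be told apart in any of the differences. The number of arrays limits the precision.

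Of the adrenergic neuroblast markers DBH, TH, CHGB, STMN2, ELAVL4, RET and GAP43, 7 of 7 were bright enough to be tested, with mean log2 levels from 0.28 for GAP43, a growth cone protein, to 5.45 for STMN2, a microtubule regulator of neurites. These means cover cultures that differ widely, with 24 h levels of -6.27 to 4.95 for DBH, -5.42 to 4.65 for CHGB, -5.13 to 2.91 for ELAVL4 and -3.00 to 4.05 for RET. Of the 6 Schwann cell markers 2 had a probe with a symbol and 1 was tested. Of the 6 mesenchymal markers 3 had such a probe and 2 were tested. All 5 endothelial and all 6 leukocyte markers had such a probe, and 2 of each list were tested. The level of a marker without such a probe is not known here. Probes carry gene symbols only through a shortened copy of the study's supplementary table, so lists are incomplete. This copy covers 3503 of the 43291 probes (8.09%), and the table was made for differences between FOXP1 and GFP cells. A probe was tested when 6 or more of the 12 arrays had it well above background, and 7.36% of the 34037 tested probes have a symbol.

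The FOXP1 probe (UKv4_A_23_P155257) itself had log2 levels of 1.08 to 3.00 with a median of 2.65 on the 6 arrays of 24 h, and of 1.05 to 2.94 with a median of 2.55 on the 6 arrays of 72 h. The levels of both times overlap across almost their whole range, and the probe was not higher on the SK-N-BE(2) arrays labelled FOXP1, with 2.63 against 2.87 on the GFP array at 24 h and 2.73 against 2.81 at 72 h. The mean difference between 72 and 24 h was -0.09 ± 0.14 (SD, n = 6; exact two-sided sign-flip permutation test, p = 0.219, where the smallest possible p is 0.0312). In FOXP1 cultures it averaged -0.08 and in GFP cultures -0.10.

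Across all 6 cultures, limma called 0 of the 34037 probes (0%) between 24 and 72 h at an adjusted p under 0.05. The lowest adjusted p was 0.637. At an unadjusted p under 0.05 there were 2589 probes (7.61%), of which 963 (2.83%) were higher and 1626 (4.78%) lower at 72 h. The unpaired test that the study's methods name gave 0 probes after adjustment and 14 at a fold of at least 2 without it. The 95% interval of a probe's mean change reached 0.37 to either side in the median, and 150 probes (0.441%) had a mean change of at least 2-fold in either direction. A direction shared by all 6 cultures was found for 768 probes (2.26%) that were higher and 1784 (5.24%) that were lower at 72 h.

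Lower values prevailed among the shared directions under each of the scalings tried. Of the probes with a shared direction, 30.1% were higher at 72 h, against 36.5% after quantile normalization, 37.4% in the authors' table and 20.2% after normexp background correction, which was run on the median spot signals and so also differs from the processed signal in the signal it starts from. The median change over all tested probes was -0.04 here and -0.20 after normexp correction. Among the 27585 probes well above background on all 12 arrays, 592 were higher and 1654 lower in all 6 cultures, and 43 and 69 of these have a symbol.

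The genes in the next paragraphs on shared directions were chosen after their values were seen, as those with the largest mean change among the probes with symbols that were well above background on all 12 arrays and had a direction shared by all 6 cultures, and 0 of them passed the adjusted test. Of these 23 genes 20 kept the shared direction after quantile normalization and in the authors' table, the others being ALS2CR8, ODF3 and TMEM74, and 12 kept it after normexp correction. The strongest by unadjusted p among them was PRKACB, a catalytic subunit of the cyclic AMP dependent protein kinase. Its log2 levels ran from -3.90 to 1.22 with a median of -1.93 at 24 h and from -3.55 to 1.77 with a median of -0.96 at 72 h. The ranges overlap because the lines differ by more than the times do, but within a culture the 72 h array was higher in 6 of 6, by 0.35 in IMR-32 GFP, 1.05 in IMR-32 FOXP1, 0.55 in CHP-212 GFP, 1.16 in CHP-212 FOXP1, 0.18 in SK-N-BE(2) GFP and 0.90 in SK-N-BE(2) FOXP1. The mean difference was 0.70 (95% interval 0.43 to 0.97, limma, unadjusted p = 0.00045, adjusted p = 0.637). In each line the FOXP1 culture had the larger value, with a FOXP1 minus GFP difference of 0.68 (limma, unadjusted p = 0.0206, adjusted p = 1).

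FLJ38379, a transcript without a known product, had the highest mean difference of these, 1.40 (95% interval 0.63 to 2.18, limma, unadjusted p = 0.00352). Its 24 h levels of -4.94 to -1.33 (median -3.75) overlapped the 72 h levels of -4.15 to -0.86 (median -1.61), and the differences ran from 0.38 in IMR-32 GFP to 2.95 in SK-N-BE(2) FOXP1. ST7OT1, an antisense transcript of the ST7 locus, averaged 1.12 and GOLGA8A, of the golgin family, 0.91, both with their 2 largest values in SK-N-BE(2). NANOG, a transcription factor of pluripotent cells, was higher by 0.61 with a narrower spread (SD 0.28, n = 6), from 0.17 in SK-N-BE(2) FOXP1 to 0.94 in IMR-32 GFP. KCNMA1, a potassium channel subunit, was higher by 0.53, and the other members of this group (ALS2CR8, FBXO36, RPL31, C14orf45, PCDHB4 and CCDC146) by 0.48 to 0.66. Without SK-N-BE(2) FOXP1 the mean of ALS2CR8 fell from 0.66 to 0.44.

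**Figure D1:**
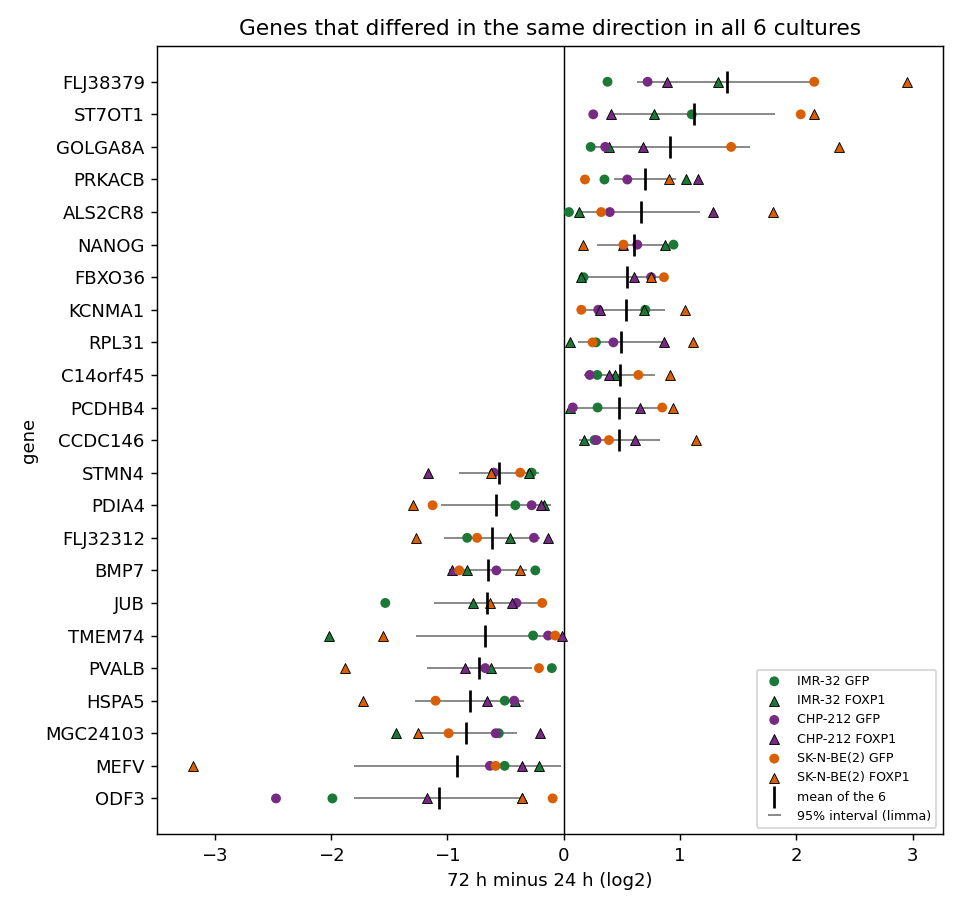
Genes with the largest mean difference among those with a symbol, all 12 arrays well above background and a direction shared by all 6 cultures, chosen after the values were seen; 12 of the 23 kept that direction after normexp correction. The horizontal axis is the log2 level at 72 h minus that at 24 h; each symbol is a culture, the bar the mean of the 6 and the line its 95% interval from limma. PRKACB lies between 0.18 and 1.16 and HSPA5 between -1.72 and -0.42, and none passed the adjusted test.

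On the lower side, HSPA5 (UKv4_A_24_P98411), the main chaperone of the ER lumen, had log2 levels of 2.24 to 4.96 with a median of 3.42 at 24 h and of 1.81 to 3.85 with a median of 2.74 at 72 h. The ranges overlap, with the highest levels of both times in SK-N-BE(2), and the 72 h array was lower in 6 of 6 cultures. The differences were -0.51 and -0.42 in the GFP and FOXP1 cultures of IMR-32, -0.43 and -0.66 in those of CHP-212, and -1.10 and -1.72 in those of SK-N-BE(2). Their mean was -0.81 (95% interval -1.28 to -0.34, limma, unadjusted p = 0.0047, adjusted p = 0.637). PDIA4, a disulfide isomerase that works beside it, was lower in 6 of 6 cultures too, by a mean of -0.58 (limma, unadjusted p = 0.0223), with the values farthest from 0 again in SK-N-BE(2). Under the 3 other scalings the mean stayed between -0.71 and -0.70 for HSPA5 and between -0.48 and -0.46 for PDIA4, although after normexp correction each was lower in 5 of 6 cultures, whereas others of the genes with a shared direction moved more. After normexp correction the mean was 0.65 for FLJ38379, 0.34 for FBXO36, 0.23 for NANOG, 0.16 for CCDC146, 0.14 for C14orf45, 0.12 for ALS2CR8 and -0.23 for STMN4.

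Of the 14 tested members of the list of amino acid response and ER stress genes, 11 had a mean below 0 and 21.4% a mean above 0, against 42.8% of all tested probes, and the median of their mean changes was -0.20, against -0.04 over all tested probes. The promoter of HSPA5 is shown because it carries the ER stress element, the sequence through which unfolded protein induces this gene. In RefSeq's GRCh38.p14, the 250 bases before its start are chr9:125241344-125241593 on the minus strand, and capitals mark the element (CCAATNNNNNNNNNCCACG, searched on both strands), which begins 66 bases before the start.
HSPA5: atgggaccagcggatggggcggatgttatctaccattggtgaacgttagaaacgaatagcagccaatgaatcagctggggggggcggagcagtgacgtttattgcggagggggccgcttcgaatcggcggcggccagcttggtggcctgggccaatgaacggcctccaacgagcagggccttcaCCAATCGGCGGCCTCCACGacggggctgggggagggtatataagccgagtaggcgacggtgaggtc
The element was found in 26 of 35116 promoters of this length (0.074%). Of the 14 list members 13 were matched to a promoter and 1, HSPA5, held the element. A match describes the sequence only.

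BMP7, a ligand of the bone morphogenetic protein family, was lower at 72 h in 6 of 6 cultures by a mean of -0.65 (SD 0.30, n = 6), from -0.96 in CHP-212 FOXP1 to -0.24 in IMR-32 GFP. STMN4, a neural microtubule regulator, was lower by -0.56. ODF3, a sperm tail component whose direction was shared by 5 of 6 cultures after quantile normalization and in the authors' table, averaged -1.07 with its values farthest from 0 in the GFP cultures of CHP-212 (-2.47) and IMR-32 (-1.99). MEFV, which encodes pyrin, averaged -0.91, and that mean rests on SK-N-BE(2) FOXP1 with -3.18 beside -0.63 to -0.22 in the other 5 cultures (mean -0.46). Other members of this group (MGC24103, PVALB, TMEM74, JUB and FLJ32312) averaged between -0.84 and -0.62, but TMEM74 changed from -0.68 to -0.41 without IMR-32 FOXP1, and its direction was shared by 4 of 6 cultures under each other scaling. LMNB1, the lamin of the nuclear envelope that dividing cells hold in quantity, was lower in 5 of 6 cultures by a mean of -1.03 (95% interval -1.73 to -0.33, limma, unadjusted p = 0.0105), and 0.18 higher in SK-N-BE(2) FOXP1.

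The pair of arrays from 0 and 12 h of the same cultures has the same slide positions and gives a view of these genes before 24 h. There PRKACB was higher at 12 h in 6 of 6 cultures by a mean of 0.70, while NANOG (-1.49), GOLGA8A (-1.26) and FLJ38379 (-0.83) were lower at 12 h in every culture, opposite to their late direction. Over the 23 genes with a shared late direction, the mean from 0 to 12 h had the late direction for 12 and the opposite for 11, so neither prevailed.

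A part of the genes the study names was followed as well, and others it names were not. NEFL, a neurofilament subunit, had log2 levels of 1.29 to 3.36 (median 2.58) at 24 h and of 0.93 to 3.22 (median 2.14) at 72 h, and was lower in 5 of 6 cultures by a mean of -0.37 (limma, unadjusted p = 0.0166, adjusted p = 0.637). DBH and TH, enzymes of catecholamine synthesis, averaged 0.52 and 0.44, with DBH higher in 5 of 6 cultures and lower only in CHP-212 FOXP1 (-0.70). TH averaged 0.29 without IMR-32 GFP. The receptor tyrosine kinase RET averaged 0.32, but 0.09 without IMR-32 FOXP1, and was higher in 3 of 6 cultures, while the neuropeptide NPY averaged 0.17 (-0.33 after normexp correction), HOXC9 -0.13 and the microtubule protein MAP2 -0.09. Without SK-N-BE(2) GFP the mean of NPY was 0.28. Without IMR-32 GFP the mean of HOXC9 was -0.21 and that of MAP2 0.002. PLCG2, a phospholipase, cleared the background on 6 of 12 arrays, so no size is given. DNER (4 of 12 arrays) and TNFSF10 (0 of 12) were too dim to be tested. Among the 9 tested, 0 were called by limma, and 2, DBH and NEFL, had an unadjusted p under 0.05.

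Whether the transgene mattered was tested as the difference of the late change between the 3 FOXP1 and the 3 GFP cultures. Limma called 0 of 34037 probes (0%) at an adjusted p under 0.05, with a lowest adjusted p of 1, and 684 (2.01%) at an unadjusted p under 0.05. The 95% interval of this difference reached 0.75 to either side in the median, in a fit that leaves out the likeness of the cultures of a line. With the cell line as a block limma called 0 as well, with a lowest adjusted p of 0.634 and 2615 probes at an unadjusted p under 0.05. FOXP1 differences all above or all below the GFP differences were found for 1797 of 33924 probes (5.30%). Such a split of 3 against 3 values also arises by chance, so the count is not read as a transgene difference. In SK-N-BE(2) the direction of this contrast follows the array labels.

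The probes with symbols and the lowest unadjusted p are named here although they did not pass. SH3BGRL, a small protein related to thioredoxins, was well above background on all 12 arrays. Its level differed by -0.58, 0.03 and 0.16 in the GFP cultures of IMR-32, SK-N-BE(2) and CHP-212, and by 0.78, 1.06 and 0.74 in the FOXP1 cultures. The groups do not overlap, as a choice by p makes likely, and the difference between them was 0.99 (95% interval 0.34 to 1.65, limma, unadjusted p = 0.0089, adjusted p = 1). NEXN, an actin-binding protein, and C15orf33 had higher values in FOXP1 cultures too, but cleared the background on 9 and 7 of 12 arrays, and no size is given. GLI3, a transcription factor of the Hedgehog pathway, had the lowest unadjusted p of those lower in the FOXP1 cultures (0.00204, adjusted p = 1, limma), but it cleared the background on 6 of 12 arrays, and its size is not given. The same holds for POU2F2, a transcription factor of B cells and neurons, with 8 of 12 arrays. The noncoding transcript TTTY14 had a difference of -1.20.

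Without the SK-N-BE(2) cultures, where the FOXP1 probe did not separate the labels, 1 probe was called, UKv4_A_24_P870176, which has no symbol (limma, adjusted p = 0.0387). In each of the 4 cultures it was well above background at only 1 of the 2 times, so its changes are lower bounds for the processed signal only. In the GFP cultures of IMR-32 and CHP-212 it was at least 3.44-fold and at least 3.18-fold lower at 72 h, and in the FOXP1 cultures at least 1.18-fold and at least 2.56-fold higher. In SK-N-BE(2) it was higher at 72 h in both cultures.

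The cultures of SK-N-BE(2) and those of CHP-212 were more alike than any pair from different lines, and those of IMR-32 were not. Across the tested probes, Pearson's r between the late changes of the FOXP1 and GFP cultures of a line was 0.428 in SK-N-BE(2), 0.380 in CHP-212 and 0.100 in IMR-32, and 0.494, 0.514 and 0.144 over the 27585 probes well above background on all 12 arrays. For the 12 pairs of cultures from different lines it ran from -0.322, between CHP-212 FOXP1 and SK-N-BE(2) GFP, to 0.141, between IMR-32 GFP and SK-N-BE(2) GFP. After normexp correction r was 0.525 in SK-N-BE(2), 0.521 in CHP-212 and -0.078 in IMR-32. Probes are not independent replicates, and the cultures of a line share a slide, so the likeness of a line and that of a slide cannot be told apart.

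**Figure D2:**
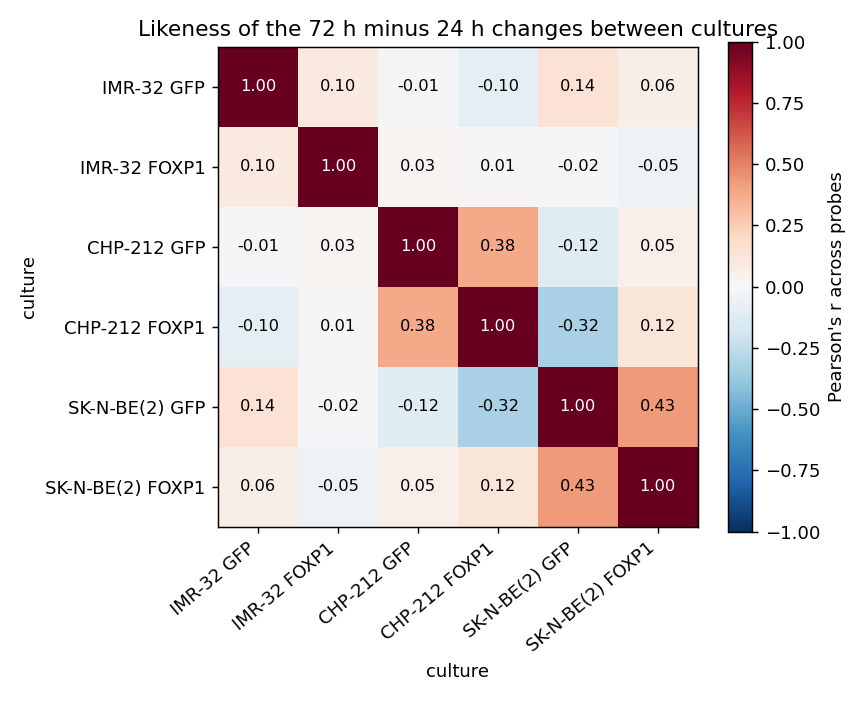
Pearson's r across the tested probes between the 72 h minus 24 h differences of every pair of cultures, as a color and a number. Pairs from the same line have 0.43 in SK-N-BE(2), 0.38 in CHP-212 and 0.10 in IMR-32, and pairs from different lines lie between -0.32 and 0.14, so that IMR-32 lies within the range of different lines.

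The size of the late change differed among cultures as well. The SD of the differences over probes was 0.70 and 0.86 in the GFP and FOXP1 cultures of SK-N-BE(2), 0.45 and 0.41 in those of IMR-32, and 0.40 and 0.56 in those of CHP-212. The share of probes that differed at least 2-fold was 12.8 and 17.9% in SK-N-BE(2), 3.00 and 3.18% in IMR-32, and 2.47 and 6.45% in CHP-212. These shares include dim spots. Among the probes well above background on all 12 arrays they were 10.2 and 13.6%, 1.00 and 0.722%, and 0.857 and 5.23% in the same order. Over all tested probes, dim spots included, 3501 were at least 2-fold lower and 2576 at least 2-fold higher at 72 h in the SK-N-BE(2) FOXP1 culture. In the SK-N-BE(2) GFP culture 1993 were lower and 2360 higher by this limit. Both cultures of a line agreed on a 2-fold higher value for 1238 probes (3.65%) in SK-N-BE(2), 104 (0.307%) in IMR-32 and 53 (0.156%) in CHP-212, and on a 2-fold lower value for 443 (1.31%), 23 (0.0678%) and 152 (0.448%). They moved 2-fold in opposite directions for 238 (0.702%), 83 (0.245%) and 31 (0.0914%).

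**Figure D3:**
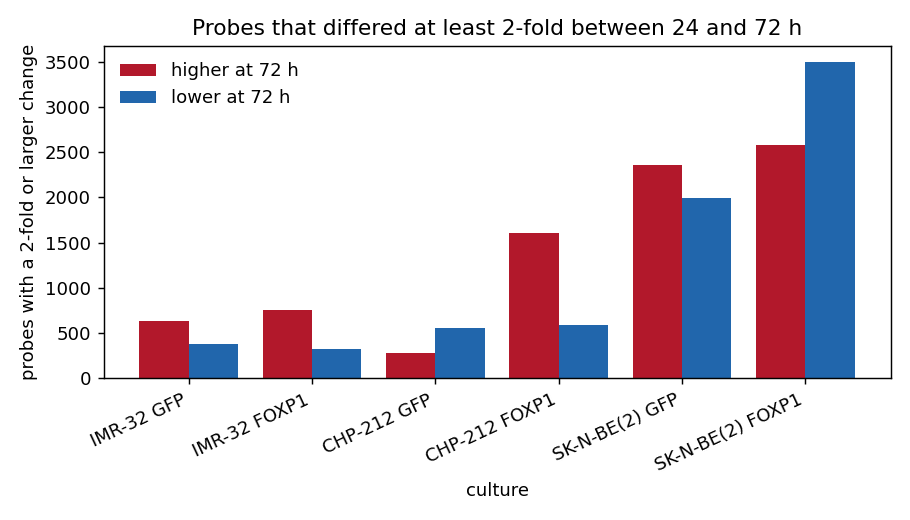
Number of probes that differed at least 2-fold between the 24 h and 72 h arrays of each culture, higher (red) and lower (blue) at 72 h. Both SK-N-BE(2) cultures stand above the 4 others in both directions, with 2360 and 2576 probes higher and 1993 and 3501 lower.

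Fitted by line, with the 2 cultures as replicates and the spread pooled over the lines, limma called 0 of 33924 probes (0%) in IMR-32 and 0 (0%) in CHP-212, with 1947 (5.74%) and 2603 (7.67%) at an unadjusted p under 0.05. The cultures of a line share a slide and differ in transgene, so these tests cannot tell a line from its slide. In SK-N-BE(2) 3177 probes (9.37%) were called, with 11069 (32.6%) at an unadjusted p under 0.05. Of all tested probes 5.94% rose and 3.43% fell, the latter 1163 probes. That 3177 of the 3177 called (100%) had the same direction in both cultures follows from a call on 2 cultures and shows no agreement. Among the called probes 325 (10.2%) also had the 4 other cultures in that direction, against 3488 (10.3%) of all tested probes. The median absolute difference between the cultures of a line was 0.41 in SK-N-BE(2), 0.29 in IMR-32 and 0.22 in CHP-212. The count of 3177 depended on several settings. With the spread of SK-N-BE(2) alone 0 probes passed (5651 at an unadjusted p under 0.05), after normexp correction 0 (2950), without the culture labelled FOXP1 331, without the GFP culture 4407, without a culture of CHP-212 551, without a culture of IMR-32 808 and without the filter on dim probes 527. Among the genes with a shared direction named above, FLJ38379, ST7OT1, GOLGA8A, FBXO36, C14orf45 and PCDHB4 rose and HSPA5, PDIA4, FLJ32312 and MGC24103 fell in SK-N-BE(2) by this test.

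Tested against each other, the late changes of CHP-212 and SK-N-BE(2) differed for 504 probes (1.49%; 7321 or 21.6% at an unadjusted p under 0.05), with SK-N-BE(2) above for 452 (1.33%) and below for 52 (0.153%). Each line lies on its own slide, so the contrasts of lines also compare slides. Between IMR-32 and SK-N-BE(2) limma called 0 (7185 at an unadjusted p under 0.05, 21.2%), and between IMR-32 and CHP-212 0 (2279, 6.72%). A change called in SK-N-BE(2) alone is thus not shown to differ from IMR-32. With only the probes well above background on all 12 arrays, 374 differed between these lines. Leaving out a culture moved the count of CHP-212 against SK-N-BE(2) to 0, except without SK-N-BE(2) GFP, where it was 1610.

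**Figure D4:**
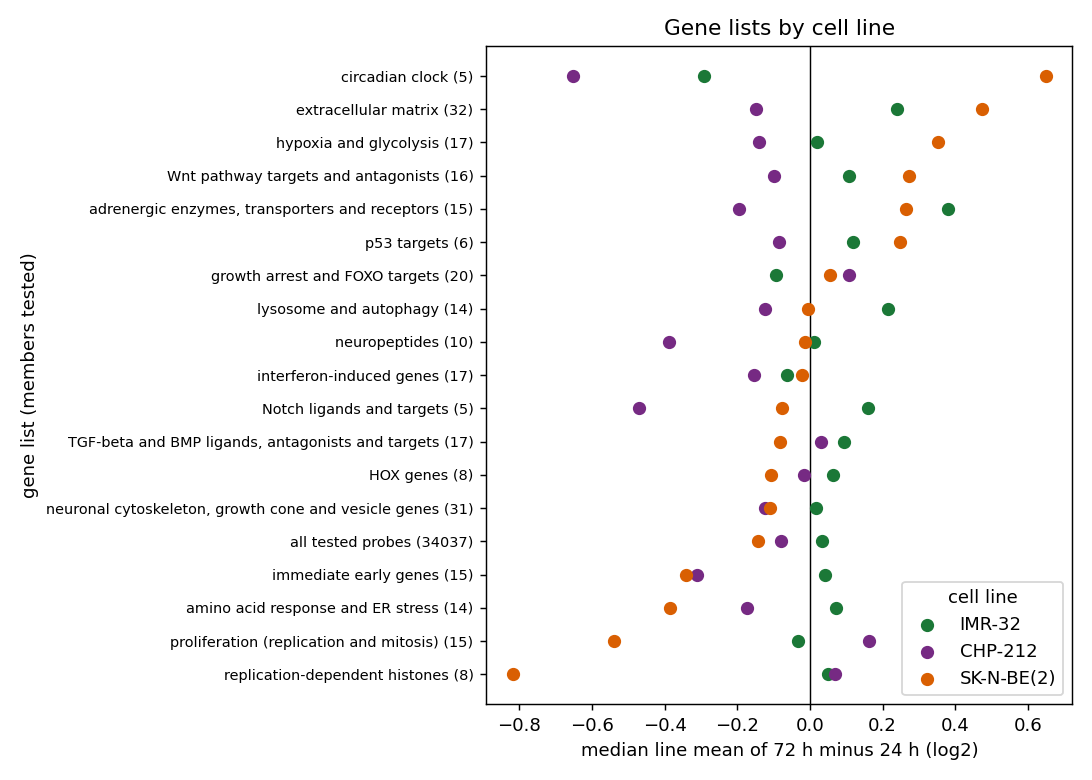
Median over the tested members of each gene list of the line mean of the 72 h minus 24 h difference (log2), for the lists with at least 5 tested members and for all tested probes. SK-N-BE(2) spans from -0.82 for histones to 0.65 for clock genes, while the histone medians of the other lines are 0.05 and 0.07.

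Some of the genes that low oxygen induces rose in SK-N-BE(2). Of 17 tested members of the hypoxia and glycolysis list, 7 were called higher (41.2%) and 0 lower there, against 8.70 and 3.31% of all tested probes with a symbol. The median of the list was 0.35 in SK-N-BE(2), 0.02 in IMR-32 and -0.14 in CHP-212, against -0.14, 0.03 and -0.08 over all tested probes. After normexp correction it stayed above 0 in SK-N-BE(2) with 0.24, whereas the median over all lines turned from 0.14 to -0.12. NDRG1 (UKv4_A_23_P20494), a gene named for its repression by N-MYC and induced by hypoxia, had log2 levels of -1.79 and -1.66 at 24 h and of 1.54 and 0.97 at 72 h in the GFP and FOXP1 cultures. All 72 h levels of the line lay above its 24 h levels, and the rise of 2.98 (standard error 0.23, 7.88-fold, adjusted p = 0.0144, limma) was 2.71 after normexp correction. It differed from CHP-212 (adjusted p = 0.0443) but not from IMR-32 at the threshold (0.079), where the mean was 0.73.

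BHLHB2, a transcriptional repressor of the clock and of the response to hypoxia, went from -4.09 and -3.76 to -2.07 and -1.06 in SK-N-BE(2), a rise of 5.14-fold (adjusted p = 0.0144, limma) or 2.36 on the log2 scale, which was 1.67 after normexp correction, and averaged -0.65 in CHP-212. ADM, which encodes the vasodilator adrenomedullin, went from 0.14 and -0.73 to 1.08 and 1.73, a rise of 3.25-fold (adjusted p = 0.0471, limma). These changes are again larger than the gap between the cultures. The other called members were the histone demethylase JMJD1A (1.81-fold), the glucose transporter SLC2A3 and the hypoxia factor subunit HIF3A, both well above background on 1 of 2 arrays at 24 h, and the carbonic anhydrase CA12, which was well above background on 0 of 2 arrays at 24 h and at least 1.49-fold higher at 72 h. After normexp correction these last 3 changed by 0.25 (SLC2A3), 0.23 (HIF3A) and 0.095 (CA12) only. BHLHB3, the relative of BHLHB2 and the other called member of the 5 circadian clock genes (40% called higher, beside 8.70% of the tested probes with a symbol), was at least 3.56-fold higher from 0 of 2 arrays well above background at 24 h, where the log2 change after normexp correction was 0.71. Oxygen in the cultures was not measured.

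Matrix genes were the largest list with calls. Of 32 tested members 9 were called higher (28.1%) and 0 lower in SK-N-BE(2), against 8.70 and 3.31% of all tested probes with a symbol. The median there was 0.47, beside 0.24 in IMR-32 and -0.15 in CHP-212. After normexp correction the SK-N-BE(2) median was 0.14, and the median over all lines turned from 0.18 to -0.20. LTBP4, which binds latent TGF-beta to the matrix, went from -1.85 and -1.62 at 24 h to 0.22 and 0.62 at 72 h, a rise of 4.46-fold (adjusted p = 0.0144, limma) that differed from CHP-212 (adjusted p = 0.0443). LOXL2, a crosslinker of collagen, rose 2.27-fold, the collagen-binding proteoglycan FMOD 2.40-fold, and the collagen chains COL13A1 2.60-fold, COL9A3 2.27-fold and COL6A2 1.91-fold. LOXL4 was well above background on 0 of 2 arrays at 24 h and at least 2.33-fold higher at 72 h, but its change was only 0.43 after normexp correction. COL8A2 and LTBP1, dim at 24 h as well and well above background on 1 of 2 arrays at 72 h, get no fold, and their changes in SK-N-BE(2) were 0.09 and -0.04 after normexp correction.

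Of 16 tested Wnt pathway genes, 4 were called higher (25%) and 0 lower in SK-N-BE(2), beside 8.70 and 3.31% of the tested probes with a symbol. NKD2, an intracellular antagonist, rose 3.36-fold from -1.97 and -0.98 to -0.24 and 0.78 (adjusted p = 0.0152, limma), and the receptor FZD7 rose 2.20-fold (adjusted p = 0.0333, limma). TCF7L1, a repressor of Wnt targets, and APCDD1L were at least 1.68-fold and at least 1.72-fold higher, each from 0 of 2 arrays well above background at 24 h, but their log2 changes were only 0.23 and 0.20 after normexp correction. AXIN2, a feedback target of the pathway, was 0.29 higher on average and higher in 6 of 6 cultures without passing (limma, unadjusted p = 0.0357). The median of the list in SK-N-BE(2) was 0.27, and 0.14 after normexp correction.

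**Figure D5:**
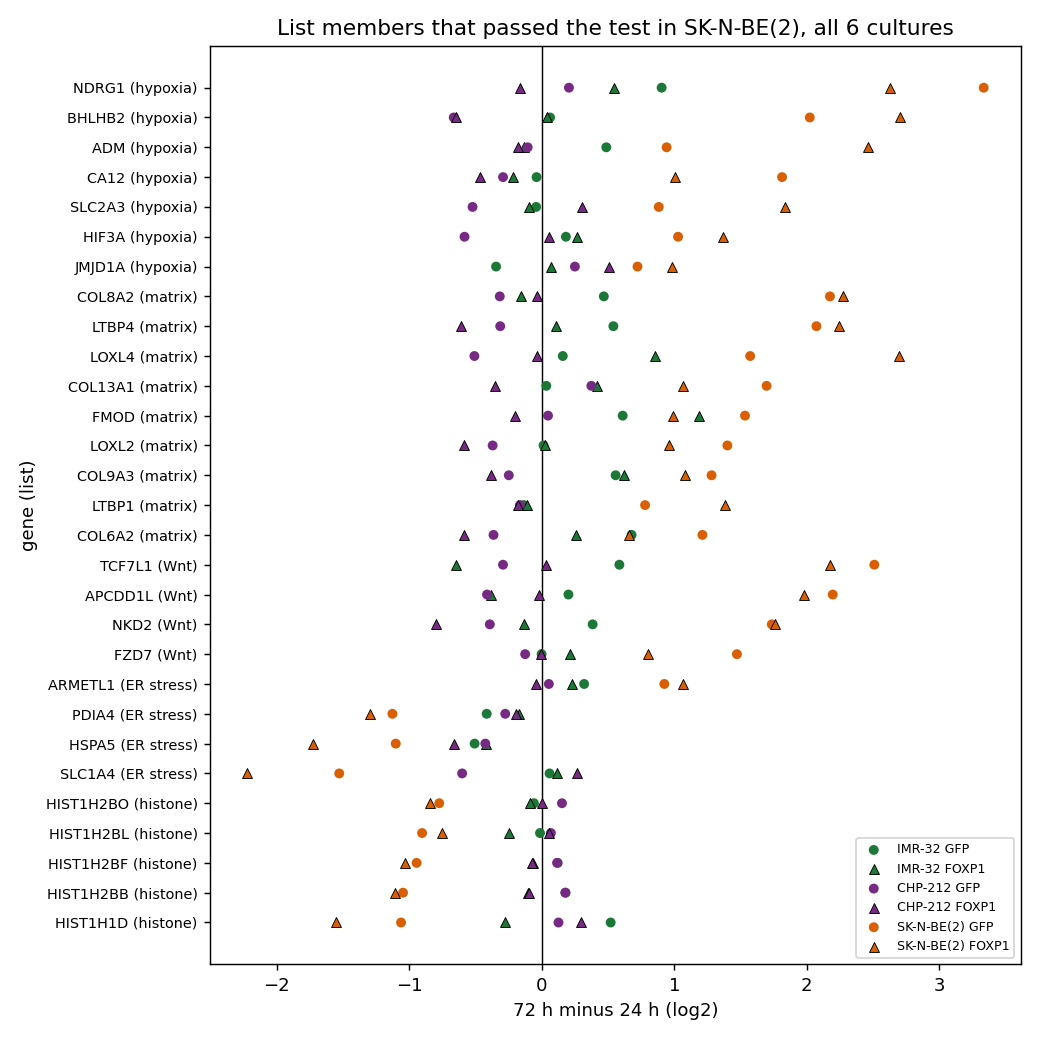
The 72 h minus 24 h difference (log2) in each of the 6 cultures for the members of the hypoxia, matrix, Wnt, ER stress and histone lists that were called in SK-N-BE(2). Both SK-N-BE(2) cultures (orange) lie at 0.66 or above for the members that rose and at -0.75 or below for those that fell, and most values of the other cultures lie nearer 0. LTBP1 changes sign in SK-N-BE(2) after normexp correction.

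Of the replication-dependent histones, whose transcripts are made in S phase, some fell in SK-N-BE(2). Of 8 tested members 0 were called higher and 5 lower (62.5%), where 8.70 and 3.31% of the tested probes with a symbol were called, with a median of -0.82 there (-0.78 after normexp correction) against 0.05 in IMR-32 and 0.07 in CHP-212. HIST1H2BB had log2 levels of 1.31 and 1.28 at 24 h and of 0.27 and 0.17 at 72 h in the GFP and FOXP1 cultures, with a change of -1.08 (standard error 0.16, adjusted p = 0.0236, limma). HIST1H2BF went from 3.15 and 3.02 to 2.20 and 1.99, a change of -0.99 (adjusted p = 0.0245, limma). HIST1H1D, a linker histone, changed by -1.31, HIST1H2BL by -0.83 and HIST1H2BO by -0.81. In each of these the levels of both times were apart in SK-N-BE(2), whereas the 4 other cultures lay between -0.27 and 0.52. The contrasts with CHP-212 (adjusted p from 0.0747 to 0.101) and with IMR-32 (from 0.103 to 0.168) did not pass.

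The promoters of 3 of these H2B genes are shown because histone genes share short promoter elements. They are the 250 bases before the start in RefSeq's GRCh38.p14, chr6:26043714-26043963 on the minus strand for HIST1H2BB (now H2BC3), chr6:26199266-26199515 on the plus strand for HIST1H2BF (H2BC7) and chr6:27893175-27893424 on the plus strand for HIST1H2BO (H2BC17). Capitals mark the CCAAT box, searched as CCAAT on both strands, so that ATTGG is a match on the other strand, and each promoter holds 3.
HIST1H2BB: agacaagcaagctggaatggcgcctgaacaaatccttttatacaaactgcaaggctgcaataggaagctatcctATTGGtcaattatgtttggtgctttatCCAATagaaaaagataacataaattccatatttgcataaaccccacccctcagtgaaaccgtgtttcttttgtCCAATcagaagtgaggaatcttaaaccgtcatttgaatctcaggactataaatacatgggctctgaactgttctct
HIST1H2BF: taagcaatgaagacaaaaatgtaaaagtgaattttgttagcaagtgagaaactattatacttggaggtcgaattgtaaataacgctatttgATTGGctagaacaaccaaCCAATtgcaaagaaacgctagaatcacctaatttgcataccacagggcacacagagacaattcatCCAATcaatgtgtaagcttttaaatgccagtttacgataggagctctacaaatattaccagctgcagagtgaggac
HIST1H2BO: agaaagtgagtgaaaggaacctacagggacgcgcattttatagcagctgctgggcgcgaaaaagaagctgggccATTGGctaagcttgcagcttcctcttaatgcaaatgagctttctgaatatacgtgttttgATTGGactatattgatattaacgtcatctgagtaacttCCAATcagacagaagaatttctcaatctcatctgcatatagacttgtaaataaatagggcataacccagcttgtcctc
The CCAAT box was found in 7 of the 8 tested histone members and in 11240 of 35116 promoters (32.0%). A match describes the sequence only, and whether the box has a part in the late change was not tested.

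Genes of replication and mitosis had a median of -0.54 in SK-N-BE(2), -0.03 in IMR-32 and 0.16 in CHP-212. Of 15 tested, 1 was called lower in SK-N-BE(2) (6.67%), the DNA repair gene FANCI, which changed by -0.75 (adjusted p = 0.0393, limma), and 0 higher. Growth rate was not measured on the arrays, and the numbers of dividing cells and the RNA of each cell cannot be told apart. In the ER stress list, 3 of 14 were called lower in SK-N-BE(2) (21.4%) and 1 higher (7.14%), beside 3.31 and 8.70% of the tested probes with a symbol. HSPA5 fell from 4.96 and 4.78 to 3.85 and 3.05 (change -1.41, standard error 0.20, adjusted p = 0.0207, limma), and PDIA4 by 1.21. The amino acid transporter SLC1A4 was well above background on 1 of 2 arrays at 72 h, and its change was -0.83 after normexp correction. ARMETL1, a trophic factor of the ER, rose 1.99-fold, or 0.52 on the log2 scale after normexp correction. For HSPA5 the contrasts with CHP-212 (adjusted p = 0.169) and IMR-32 (0.158) did not pass.

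The other lists held few calls, all in SK-N-BE(2), where 8.70% of the tested probes with a symbol were called higher and 3.31% lower. The shares called higher in the lists of immediate early (6.67%), adrenergic (6.67%), neuronal cytoskeleton and vesicle (6.45%), TGF-beta and BMP (5.88%), interferon-induced (5.88%) and growth arrest and FOXO genes (5%) were below that background, and those of neuropeptides (20%), Notch genes (20%) and mesenchymal markers (50%) above it, each from 1 or 2 genes. Of the TGF-beta and BMP list and the interferon-induced list 5.88% were called lower, 1 gene each. Of 15 immediate early genes 1 was called higher, the nuclear receptor NR4A1 (2.92-fold, adjusted p = 0.0154, limma). Of 15 adrenergic genes 1 was called higher, the vesicular transporter SLC18A1 (2.94-fold), which was higher in 6 of 6 cultures with 7 of 12 arrays well above background. Of 10 neuropeptides 2 were called higher, CARTPT and PNOC, the latter at least 1.38-fold but only 0.07 on the log2 scale after normexp correction. Of 31 neuronal cytoskeleton and vesicle genes 2 were called higher, the microtubule protein MAP6 and the synaptic protein CPLX1. Among 17 TGF-beta and BMP genes TGFB1 was called higher and ID1 lower, among 17 interferon-induced genes IFI30 higher and GBP2 lower, among 5 Notch genes the ligand DLL1 higher, among 20 growth arrest and FOXO genes the cyclin CCNG2 higher, and among 2 mesenchymal markers COL6A2 higher. The 8 HOX genes, 14 lysosome genes, 6 p53 targets, 3 metallothioneins, 1 sterol gene, 7 neuroblast markers, 2 endothelial markers, 2 leukocyte markers and 1 Schwann cell marker had 0 calls by limma in any line.

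Genes with a symbol that were called in SK-N-BE(2) and lay at least 1 log2 unit beyond both other lines included RSPO1 and CMIP. The contrast with CHP-212 did not pass for RSPO1, CMIP and PPP1R1C (adjusted p = 0.0546, 0.0503 and 0.1555, limma). It passed for CARTPT (0.0443). The contrast with IMR-32 passed for none of them (0.0778 to 0.1553). RSPO1, a secreted potentiator of Wnt signalling, went from -6.41 and -4.95 at 24 h, where 1 of 2 arrays had it well above background, to -3.10 and -1.15 at 72 h, and changed by 1.87 after normexp correction. The adaptor protein CMIP went from -1.52 and -1.98 to 2.69 and 0.82, a rise of 11.4-fold (adjusted p = 0.0233, limma) and of 3.29 on the log2 scale after normexp correction. CARTPT, the precursor of a neuropeptide, went from -2.59 and -1.50 to 0.40 and 1.58, a rise of 8.19-fold (adjusted p = 0.0144, limma), and it was higher by 1.24 in IMR-32 and lower by a mean of -0.37 in CHP-212. PPP1R1C, an inhibitor of a protein phosphatase, was at least 1.73-fold higher from 0 of 2 arrays well above background, and its log2 change was 0.41 after normexp correction.

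On the other side, VIPR1, the receptor of vasoactive intestinal peptide, went from -5.41 and -3.74 to levels well above background on 0 of 2 arrays. This was at least 3.63-fold lower on the processed signal. KIAA1257 was at least 5.95-fold and HLA-DPB1, a chain of class II antigen presentation, at least 3.97-fold lower in the same way. After normexp correction the log2 changes of these 3 were nearer 0 than the bounds, with -1.03 for VIPR1, -1.35 for KIAA1257 and -0.87 for HLA-DPB1. C4orf31, well above background on 1 of 2 arrays at 72 h, went from -5.77 and -1.65 to -8.24 and -5.22 (adjusted p = 0.0144, limma). Its change was -1.45 after normexp correction, and an exact size is not given against a dim array. The 24 h level of C4orf31 in the culture labelled FOXP1 stands above the 3 other SK-N-BE(2) levels. The contrast with CHP-212 passed for KIAA1257 and C4orf31 (adjusted p = 0.0491 and 0.0443, limma). It did not pass for VIPR1 and HLA-DPB1 (0.0674 and 0.1252). The contrast with IMR-32 passed for none of them (0.0778 to 0.1173).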

How the data were processed

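The authors' scanner software (Agilent Feature Extraction) made the deposited processed signal intensities, which per the file headers are background-subtracted and detrended within the array and not normalized between arrays. A deposited second table of linear intensities has the same sorted values in each column to within 0.088% and was read as the authors' quantile-normalized version. Here log2 intensities were set relative to the 75th percentile of each array, and control spots and 141 outlier spots were left out. A probe was tested when 6 or more of the 12 arrays had it well above background, the measure of depth here.

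The 6 paired differences were fitted with limma 3.58.1 (lmFit, eBayes) in R 4.3.3, with an intercept and the transgene, and by cell line for the 33924 probes with all 6 differences (113 lack 1 or more). P-values are two-sided and Benjamini-Hochberg adjusted over all probes tested, with a threshold of 0.05. Folds against arrays not well above background are lower bounds against the lowest signal well above background. The fits were tested on simulated data. As a check of the pairing, the deviations of the cultures of a line correlated with 0.475 in SK-N-BE(2), 0.518 in CHP-212 and 0.206 in IMR-32.

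Genes named are the study's, the lowest p-values for FOXP1 minus GFP, the called probes farthest from the other lines, and for each list the members called in SK-N-BE(2) or with the largest changes; genes sharing a direction were added after their values were seen. From the markers and from the genes sharing a direction, 1 each is left out. Members and lists were chosen with earlier results of these data known. Symbols came from a shortened copy of the study's supplementary table, of which 3360 of 3503 matched the reference by name, synonym or accession. Alternatives covered normalization, background correction (normexp on the median spot signals, offset 50), filters, blocks, the methods' test and leaving out cultures. The 12 arrays of 0 and 12 h gave values beside the late change and 1 alternative, the late minus the early change. Tables used Python 3.11.15, numpy 2.4.6 and pandas 2.3.3, figures matplotlib 3.10.9.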

Additional observations from a re-analysis of the deposited data

Results flagged for a closer look

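Among the 137 genes looked at, 6 had a culture whose late change lay far from the other 5 (the gap to the nearest of them, over the whole range, was above Dixon's 95% critical value). Chance alone gives this in about 1 in 20 groups. In the SK-N-BE(2) culture labelled FOXP1 these were MEFV with -3.18 (others -0.63 to -0.22), FOXO1 with -1.95 (others -0.27 to 0.15), EGR4 with -2.43 (others -0.63 to 0.26), HOXD11 with -2.39 (others -0.45 to 0.52) and ESAM with -1.81 (others -0.40 to 0.41). In CHP-212 FOXP1 it was DBH with -0.70 (others 0.50 to 1.12). The 24 h array of the SK-N-BE(2) culture labelled FOXP1 had a higher limit of detection than its 72 h array, and its part in these values was not tested.

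By a test of the difference between cell lines, 504 probes had a late change in CHP-212 that differed from that in SK-N-BE(2) (limma, adjusted p under 0.05). The majority of them had the higher value in SK-N-BE(2). Each line lies on its own slide, so line and slide cannot be told apart.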

How the results depend on the processing

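The 0 calls shared by all cultures held under quantile normalization, the authors' table, normexp correction, 3 other filters, the cell line as a fixed (6821 at an unadjusted p under 0.05) or random block (928), no pairing (241), line means, each transgene alone and every culture or line left out, all in limma. Counting the late change minus that from 0 to 12 h gave 365 probes, whose median change was 0.20 in size late and 1.32 early, and the methods' unpaired test gave 14 at a fold of at least 2, unadjusted. For FOXP1 minus GFP, the line as a replicate block gave 0 (2615 unadjusted), and leaving out cultures or lines gave 0 to 1, with the 1 from IMR-32 and CHP-212 alone.

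For SK-N-BE(2) the 3177 calls became 0 with normexp on median spot signals (a change of signal and correction together), 527 without a filter and 0 with the spread of its own cultures, and leaving out each culture gave 331 to 4407. For CHP-212 minus SK-N-BE(2) the 504 became 876 in the authors' table, 0 after normexp correction, 1308 with all 12 arrays well above background, 0 with 3 of 12, 0 without a filter and 0 to 1610 when leaving out each culture. IMR-32 minus SK-N-BE(2) gave 374 with all 12 arrays and 0 to 1891, IMR-32 0 to 2 and CHP-212 0 to 8 when leaving out each culture. In these fits the lone culture of a line is assumed to vary like the others. They and the fit with a line's own spread were chosen after seeing the data. The cause was not tested.

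Of 2551 values of the 137 genes under the alternatives, 33 moved by 1 SD or more and 126 had the other sign. The pairs of a line correlated (0.475 in SK-N-BE(2)), and with the pairing dropped the smallest adjusted p was 1. Signal over background limits genes dim at 24 or 72 h.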
